A study of Mus musculus with 18 samples.

Results

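Slc18a2, Pdzk1ip1 and Atp1b2 are 3 genes whose messenger RNA was far lower in control MPP4 or control MPP1 than in control HSC, and they were picked for that pattern from the 29717 gene symbols of the deposited tables. HSC are haematopoietic stem cells, and MPP1 and MPP4 are multipotent progenitor populations that descend from them. All 18 libraries were made from lineage-negative bone marrow cells of BALB/c mice. Control libraries are labelled wild type for Dnmt1, the DNA methyltransferase that copies methylation to the new strand when DNA is replicated. Mutant libraries carry the genotype label dnmt1-/-, while the series text speaks of a hypomorphic missense change made in mice, so the label was not read as a null allele. Each genotype has 3 HSC libraries, 2 MPP1 libraries and 4 MPP4 libraries. No source used here gives the age of the animals or the gates that define the populations. The column names carry ID numbers that recur across populations: HSC control 1, 2 and 3 share theirs with MPP4 control 1, 3 and 4, and HSC mutant 1, 2 and 3 with MPP4 mutant 1, 4 and 3. HSC control 2 and 3 also share theirs with MPP1 control 1 and 2, and HSC mutant 2 and 3 with MPP1 mutant 2 and 1. No label calls these numbers animals, so a p-value here reflects differences among libraries that can be technical.

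Slc18a2 encodes the vesicular monoamine transporter VMAT2, which loads serotonin, histamine, dopamine and noradrenaline into storage vesicles, in neurons but also in platelets, mast cells and basophils. Pdzk1ip1, also called MAP17, encodes a small membrane protein that binds the PDZ-domain scaffold Pdzk1 and acts with the kidney glucose cotransporter SGLT2. The gene lies next to Tal1, a transcription factor gene required for blood formation. Atp1b2 encodes the beta2 subunit of the Na,K-ATPase, the sodium pump. A beta subunit pairs with a catalytic alpha subunit and is needed for the pump to reach the cell surface. In brain, Atp1b2 is known as an adhesion molecule of glia.

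The genes lie on different chromosomes. In GENCODE vM21 on GRCm38 (mm10), Slc18a2 (ENSMUSG00000025094.8) spans chromosome 19 from 59260896 to 59296012 on the plus strand. An antisense gene, Gm29261, overlaps it there, and since no source used here states that counting used strand, reads of the pair could not be told apart. Pdzk1ip1 (ENSMUSG00000028716.15) spans chromosome 4 from 115088708 to 115093899 on the plus strand, with Tal1 16953 bases to its left. Atp1b2 (ENSMUSG00000041329.13) spans chromosome 11 from 69599736 to 69605942 on the minus strand, with Trp53 7863 bases to its left. The promoter windows of Slc18a2 and Pdzk1ip1 are shown because Dnmt1 acts on the C of a CG pair. They run from 250 bases before to 50 bases after the RefSeq gene start on GRCm38.p6, plus strand, 5′ to 3′, at chr19:59260628-59260927 and chr4:115088458-115088757, and the capitals mark every CG pair. These are the 2 of the 3 genes that were matched to a RefSeq window.
Slc18a2: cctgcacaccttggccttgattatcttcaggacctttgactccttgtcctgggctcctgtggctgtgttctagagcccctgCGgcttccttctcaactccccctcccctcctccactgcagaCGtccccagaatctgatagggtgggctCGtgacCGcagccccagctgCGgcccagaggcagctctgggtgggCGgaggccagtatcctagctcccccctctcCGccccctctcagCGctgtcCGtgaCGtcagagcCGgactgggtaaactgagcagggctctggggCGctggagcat
Pdzk1ip1: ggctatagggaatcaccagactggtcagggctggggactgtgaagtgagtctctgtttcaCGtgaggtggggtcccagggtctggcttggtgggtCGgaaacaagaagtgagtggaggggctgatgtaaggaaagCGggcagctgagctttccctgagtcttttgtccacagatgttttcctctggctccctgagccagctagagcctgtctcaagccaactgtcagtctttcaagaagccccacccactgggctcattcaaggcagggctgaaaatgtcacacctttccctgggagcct

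The Slc18a2 window holds 12 CG pairs at 64.0% G+C. Pdzk1ip1 has 3 CG pairs at 55.7% G+C. The median over 27025 mouse promoter windows of this length is 7, and 59.9% of windows have fewer pairs than Slc18a2, while 23.8% have fewer than Pdzk1ip1. Both windows were also searched on both strands for 5 motifs. TGACGTCA, the letters of the cyclic AMP response element, was added to the search after the sequence had been read. It occurs in the Slc18a2 window starting at -4 from the gene start, and 1.88% of all windows hold it. GATAA, the core of the GATA factor motif, occurs in the Slc18a2 window and in 25.8% of all windows. CANNTG, the E-box core bound by factors such as Tal1 with its partners, occurs 1 time in the Slc18a2 window and 4 times in the Pdzk1ip1 window, where 1 of the matches is CACGTG. The E-box core CANNTG is found in 72.1% of windows and CACGTG, a special case of it, in 7.24%. TGTGGT, a core of the Runx motif, has no match in either window. A match describes letters only, and methylation of these windows was not analysed here.

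Counts came from CEL-Seq2, which primes at the poly(A) tail and labels each captured molecule with a random tag. The level of a gene is given as CPM, counts divided by the library total and set to a common scale after TMM adjustment, and levels are compared between libraries and not between genes. Library totals ran from 354642 to 1943562 counts with a median of 745850.5. In bulk libraries fewer cells of a type and less RNA per cell cannot be told apart. Dnmt1 itself lay between 98.3 and 402 CPM over the 18 libraries, and because the mutation is described as missense, its level is no check of genotype. The labels of MPP4 and HSC were checked on known surface markers. Flt3, the receptor that marks MPP4, had 469 ± 50.0 CPM (SD, n = 4) in control MPP4 and 29.9 ± 8.96 CPM (SD, n = 3) in control HSC. Flt3 was also higher in mutant MPP4 than in mutant HSC by 4.44 on the log2 scale (adjusted p = 8.1e-08 by edgeR's quasi-likelihood test with Benjamini-Hochberg adjustment). Slamf1, which marks stem cells, was lower by the same test (log2 difference of -6.33, adjusted p = 5.04e-06). The label of MPP1 could not be checked in this way. Between mutant MPP1 and mutant HSC, 0 of 6 listed markers (Kit, Ly6a, Cd34, Flt3, Slamf1 and Cd48) passed. Over all genes 0.0471% did. Some libraries held many transcripts of mature cells: HSC control 1 had 35018 CPM from a list of 11 B cell markers, and MPP4 mutant 2 had 235411 CPM from 12 erythroid markers and 38934 CPM from 10 neutrophil markers.

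Slc18a2 was high in HSC and MPP1 and close to 0 in MPP4, in both genotypes. In control HSC it had 223, 248 and 392 CPM in replicates 1 to 3, from 136, 273 and 146 counts, a mean of 287.5 ± 91.3 (SD, n = 3). Control MPP1 had 210 and 245 CPM (227 ± 24.8, SD, n = 2), within the range of control HSC or just under it. Control MPP4 had 5.50, 4.88, 5.45 and 16.1 CPM (7.97 ± 5.41, SD, n = 4), from 9, 11, 7 and 4 counts. All 4 control MPP4 libraries lay far below the 5 control libraries of HSC and MPP1, while the ranges of control HSC and control MPP1 overlapped. The control libraries chose the gene, so these differences are a description: the fitted log2 difference was -5.26 for MPP4 against HSC, rank 14 from the most lower of 10613 genes, and -0.45 for MPP1 against HSC, rank 1354. The name given to the group, genes lost early on leaving HSC, therefore does not describe Slc18a2 at the step from HSC to MPP1.

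In mutant libraries, which did not enter the choice, Slc18a2 was again lowest in MPP4, while its mean was higher in MPP1 than in HSC. Mutant HSC had 111.97, 184 and 234 CPM (176.6 ± 61.1, SD, n = 3). Mutant MPP1 had 262 and 208 CPM (235 ± 37.7, SD, n = 2). Mutant MPP4 had 3.74, 4.30, 2.55 and 0 CPM (2.65 ± 1.91, SD, n = 4), from 3, 2, 1 and 0 counts. The 4 mutant MPP4 libraries thus held 6 Slc18a2 counts in all, against 198 in the 2 mutant MPP1 libraries. From mutant HSC to mutant MPP4 Slc18a2 fell by 6.51 on the log2 scale (SE 0.40, adjusted p = 1.13e-13 by edgeR's quasi-likelihood test with Benjamini-Hochberg adjustment, and from 1.45e-62 to 7.46e-09 over its alternatives). From mutant MPP1 to mutant MPP4 it fell by 6.73 (SE 0.43, adjusted p = 5.4e-13, and from 3.46e-55 to 1.29e-08 over its alternatives, same test). Between mutant MPP1 and mutant HSC the difference was 0.21 (SE 0.25, adjusted p = 0.894, same test), and their ranges overlapped. Because mutant MPP4 held so few counts, the size of the fall moved with single libraries: the MPP4 to HSC difference was -8.00 without HSC mutant 1 or without MPP4 mutant 1, and -5.44 without MPP4 mutant 4, the library at 0. HSC mutant 1 and MPP4 mutant 1 share an ID number that no other library has, so leaving out either takes the same pair out of the comparison. In pooled counts HSC exceeded MPP4 by 46.6 times in controls (95% interval 32.5 to 69.3) and by 80.1 times in mutants (36.5 to 219). These exact intervals cover counting error only.

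**Figure D1:**
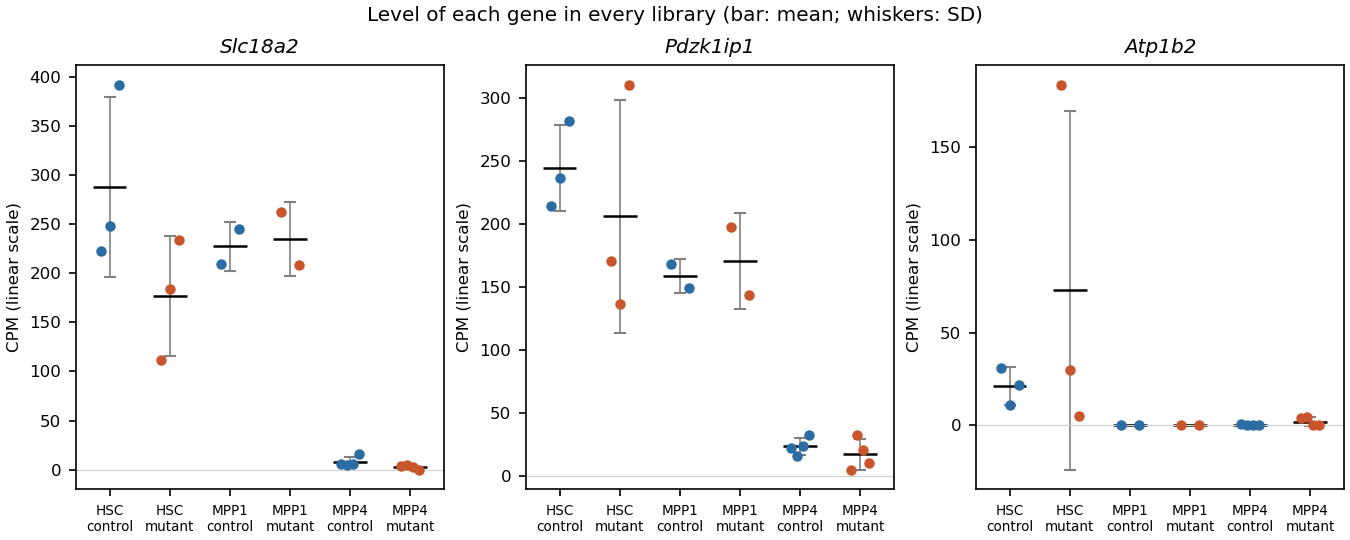
Level of Slc18a2, Pdzk1ip1 and Atp1b2 in CPM in each of the 18 libraries (points), by population and genotype (blue control, orange mutant), with the group mean as a black bar and its SD as whiskers, which run below 0 where the SD exceeds the mean. Slc18a2 has overlapping levels in HSC and MPP1 and is low in MPP4. Pdzk1ip1 is also low in MPP4, and both its control MPP1 libraries lie below every control HSC library. Atp1b2 is at 0 in all 4 MPP1 libraries and reaches 184 CPM in HSC mutant 1.

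In controls Pdzk1ip1 followed the same order as Slc18a2, with a smaller difference between MPP4 and HSC. Control HSC had 215, 237 and 282 CPM (244.5 ± 34.3, SD, n = 3), and control MPP1 had 168 and 149 CPM (159 ± 13.5, SD, n = 2). Both control MPP1 libraries lay below the lowest control HSC library. Control MPP4 had 22.6, 15.5, 24.1 and 32.1 CPM (23.6 ± 6.82, SD, n = 4), all of them below both MPP1 libraries. Unlike Slc18a2, Pdzk1ip1 kept from 8 to 37 counts in each control MPP4 library. As a description, the fitted log2 difference between control MPP4 and control HSC was -3.26, rank 71 of 10613, and between control MPP1 and control HSC -0.68, rank 603.

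In the mutants Pdzk1ip1 had 171, 136 and 311 CPM in HSC (206 ± 92.4, SD, n = 3), 198 and 143.8 CPM in MPP1 (171 ± 38.1, SD, n = 2), and 4.99, 32.3, 20.4 and 10.6 CPM in MPP4 (17.1 ± 11.98, SD, n = 4). Mutant HSC and MPP1 overlapped, and every mutant MPP4 library lay below both. From mutant HSC to mutant MPP4 Pdzk1ip1 fell by 4.12 on the log2 scale (SE 0.27, adjusted p = 3.17e-13 by edgeR's quasi-likelihood test with Benjamini-Hochberg adjustment, and from 1.22e-46 to 4.11e-06 over its alternatives). From mutant MPP1 to mutant MPP4 it fell by 3.76 (SE 0.31, adjusted p = 2.9e-10, and from 5.71e-28 to 0.00018 over its alternatives, same test). The difference between mutant MPP1 and mutant HSC was -0.35 (SE 0.24, adjusted p = 0.794, same test). Pooled counts were 11.7 times higher in HSC than in MPP4 in controls (95% counting interval 9.47 to 14.5) and 13.4 times higher in mutants (9.74 to 19.0).

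Atp1b2 had another pattern and was already at 0 in MPP1. Control HSC had 31.1, 10.9 and 21.5 CPM (21.2 ± 10.1, SD, n = 3) from 19, 12 and 8 counts. None of the 4 MPP1 libraries, control or mutant, held an Atp1b2 count. With control MPP1 set to a floor of 3 counts over the group, control HSC was 11.8-fold higher. With the observed 0 counts in control MPP1, the 95% counting interval of the ratio starts at 9.15. No interval was computed for the floor ratio. Control MPP4 had 0.61 CPM in replicate 1, from 1 count, and 0 in replicates 2 to 4. With 39 counts in control HSC and 1 in control MPP4, the pooled ratio was 101.5, with a counting interval from 17.2 to 4111. Of the 3 genes, Atp1b2 was the one with no count in MPP1, and its low counts in HSC make these ratios wide.

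Mutant HSC libraries differed widely in Atp1b2, with 184, 30 and 4.93 CPM from 205, 35 and 3 counts (72.9 ± 96.7, SD, n = 3). HSC mutant 1 alone was above all other libraries, and HSC mutant 3 was below every control HSC library. Mutant MPP4 had 3.74 and 4.30 CPM in replicates 1 and 2, from 3 and 2 counts, and 0 in replicates 3 and 4 (2.01 ± 2.33, SD, n = 4). From mutant HSC to mutant MPP4 Atp1b2 fell by 5.84 on the log2 scale (SE 0.60, adjusted p = 9.53e-09 by edgeR's quasi-likelihood test with Benjamini-Hochberg adjustment, and from 1.15e-17 to 0.0677 over its alternatives). The call was lost with DESeq2 (log2 difference of -5.74, adjusted p = 0.0677). Without HSC mutant 1 the difference was -7.38 (adjusted p = 0.00348, same edgeR test), and without MPP4 mutant 1 it was -7.42 (adjusted p = 3.26e-05, same test). These libraries share an ID number, so leaving out either takes the same pair out of the comparison and is not a separate check. Pooled counts gave a ratio of 48.5 (20.5 to 151) with HSC mutant 1 and 12.3 (4.85 to 40.2) without it. Between mutant MPP1 and mutant HSC the fitted difference of -7.05 missed the threshold (SE 1.53, adjusted p = 0.0827, same edgeR test), although all MPP1 libraries are at 0. It passed when low counts were not filtered (adjusted p = 0.0152, same test) and without MPP4 mutant 1 (adjusted p = 0.0289, same test), and it reached 1.0 among its other alternatives. With mutant MPP1 set to the floor of 3 counts over the group, mutant HSC was 23.9-fold higher, and 6.09-fold higher without HSC mutant 1. With the observed 0 counts in mutant MPP1, the 95% counting interval of the ratio starts at 19.3, and at 4.72 without HSC mutant 1. No interval was computed for the floor ratios. Mutant MPP4 and MPP1 differed by 1.21 (SE 1.74, adjusted p = 0.798, same test), a value that rests on 5 counts against 0.

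Set against all genes, 3 of the 3 genes passed the test between mutant MPP4 and mutant HSC, all lower, where 12.7% of 10613 genes passed in either direction and 5.75% were lower. Between mutant MPP4 and mutant MPP1, 2 of 3 passed, Slc18a2 and Pdzk1ip1, where 6.16% of all genes passed and 3.16% were lower. Atp1b2 met the filter on low counts only through HSC libraries, and Slc18a2 only through HSC and MPP1 libraries. A lower value outside those libraries was thus favoured by the filter, so these counts of passing genes are no independent support. Between mutant MPP1 and mutant HSC none of the 3 passed by edgeR's quasi-likelihood test, and 1 of them, Atp1b2, had an unadjusted p under 0.05 (6.23e-05). Over all genes 7.42% had an unadjusted p under 0.05, 0.0471% passed after adjustment and 0.00942% passed and were lower. DESeq2 likewise called none of the 3 between mutant MPP1 and mutant HSC. Without MPP4 mutant 2, the library richest in erythroid and neutrophil transcripts, the MPP4 to HSC differences in the mutants were -6.52 for Slc18a2, -4.12 for Pdzk1ip1 and -5.84 for Atp1b2. MPP4 mutant 2 is the only library of its ID number, and ID number is a block in the fit. It therefore has almost no weight in these differences, and leaving it out cannot show the part of its erythroid and neutrophil transcripts. Only batch C has all 3 populations in both genotypes. Within batch C alone the mutant MPP4 to HSC differences were -7.95 for Slc18a2, -3.80 for Pdzk1ip1 and -7.18 for Atp1b2, and each passed the edgeR test (adjusted p = 5.78e-14, 2e-11 and 0.008).

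Each ID number was followed from its HSC library to its MPP1 and MPP4 libraries. For Slc18a2, MPP1 had 84.7% and 62.4% of the level of HSC control 2 and 3, and 113% and 112.1% of the level of HSC mutant 2 and 3. In MPP4 the remaining share of Slc18a2 was 2.47%, 2.20% and 4.10% for HSC control 1 to 3 and 3.34%, 0% and 1.09% for HSC mutant 1 to 3. Both control ID numbers were thus lower in MPP1 than in HSC and both mutant ID numbers higher, a difference between genotypes that was not tested because the control libraries chose the gene. For Pdzk1ip1, MPP1 had 71.0% and 52.9% of the HSC level in controls and 105.6% and 63.6% in mutants. In MPP4 the Pdzk1ip1 share was 10.5%, 10.2% and 11.4% in controls and 2.91%, 7.79% and 6.58% in mutants, in the same order. All 3 mutant shares of Pdzk1ip1 in MPP4 lay below the 3 control shares, which was likewise not tested. For neither gene was it counted how many of all genes separate by genotype in this way. Atp1b2 had 0% in MPP1 for all 4 ID numbers. In MPP4 its share was 1.96% for HSC control 1, 2.04% for HSC mutant 1 and 0% for the other 4. For the ID number of HSC mutant 3 these 0% values cannot show a drop, because that library held 3 counts (4.93 CPM). The 95% counting intervals at 0 counts reach 9.86 CPM in MPP1 mutant 1 and 9.42 CPM in MPP4 mutant 3. HSC control 1 and HSC mutant 1 and their MPP4 libraries were sequenced in batch A and the other 4 ID numbers in batch C, so the drop in MPP4 was present in both batches.

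**Figure D2:**
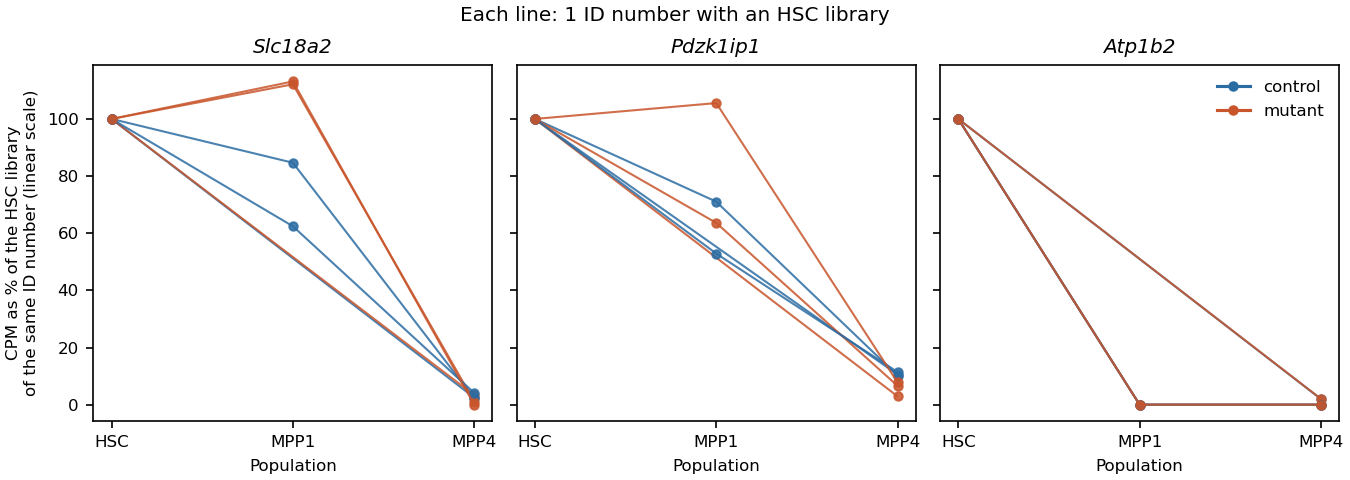
CPM of each gene in MPP1 and MPP4 as a percent of the HSC library of the same ID number, on a linear axis, with 1 line for each of 6 ID numbers (blue control, orange mutant) and a straight line to MPP4 for the ID numbers without an MPP1 library. Slc18a2 keeps 62.4% to 113% of its HSC level in MPP1 and at most 4.10% in MPP4, Pdzk1ip1 at most 11.4% in MPP4, and the Atp1b2 lines, which overlie each other, are at 0% in MPP1. The Atp1b2 line of HSC mutant 3 starts from 3 counts and cannot show a drop.

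Mutant and control libraries were then compared within each population. Control HSC libraries entered the choice of the genes, so a lower value in mutant HSC, or a higher one in mutant MPP1 or MPP4, could follow from that choice. None of the 3 genes passed in any population by edgeR's quasi-likelihood test or by DESeq2, and 2 of them had an unadjusted edgeR p under 0.05 in HSC, none in MPP1 or MPP4. The share of all genes with an unadjusted p under 0.05 was 10% for HSC, 4.86% for MPP1 and 7.12% for MPP4. After adjustment, 0.241% of 9147 tested passed in HSC, 0.225% of 8004 in MPP1 and 0.106% of 9392 in MPP4. In HSC, Slc18a2 differed by -0.74 on the log2 scale between mutant and control (SE 0.24, adjusted p = 0.287 and unadjusted p = 0.0045, same test), and the groups overlapped, with HSC mutant 3 at 234 CPM and HSC control 1 at 223 CPM. Pdzk1ip1 differed by -0.27 (SE 0.26, adjusted p = 0.757), with overlapping groups. Atp1b2 differed by 1.47 (SE 0.61, adjusted p = 0.474 and unadjusted p = 0.0399, same test). The Atp1b2 difference passed when low counts were not filtered (1.49, adjusted p = 0.0142, same test) and without HSC mutant 3 (1.85, adjusted p = 0.014, same test), and it was 0.43 without HSC mutant 1 and also within batch C alone. DESeq2 gave 0.98 for Atp1b2 in HSC.

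In MPP1 the genotypes differed by 0.06 for Slc18a2 (SE 0.24) and by 0.09 for Pdzk1ip1 (SE 0.25), both with an adjusted p of 0.999 by the same edgeR test, and Atp1b2 could not be tested at 0 counts. In MPP4, Pdzk1ip1 differed by -0.60 (SE 0.48, adjusted p = 0.889, same test), and its mutant and control libraries overlapped. Slc18a2 and Atp1b2 were under the filter on low counts in MPP4. Slc18a2 had 31 counts over the 4 control MPP4 libraries and 6 over the 4 mutant ones. Its lowest control library had 4.88 CPM from 11 counts, with a 95% counting interval of 2.43 to 8.72 CPM. Its highest mutant library had 4.30 CPM from 2 counts (0.52 to 15.5 CPM). These intervals overlap, and a genotype difference of Slc18a2 in MPP4 was not tested. The authors' deposited table gives Slc18a2 a log2 fold change of -0.51 in HSC (unadjusted p = 0.0714), -0.09 in MPP1 and -0.61 in MPP4 (unadjusted p = 0.139). For Pdzk1ip1 the authors' deposited table has -0.15, -0.06 and -0.34 in these populations, and for Atp1b2 it has 0.46 in HSC and 0.27 in MPP4. No source used here states the model behind that table or whether its fold changes were shrunk towards 0. Adjusted p-values for Slc18a2 in the authors' deposited table were 0.99992 in HSC, 0.998 in MPP1 and 0.9996 in MPP4.

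The likeness of other genes to each of the 3 was measured as the Pearson correlation of log2 CPM over all 18 libraries, among 10613 genes. It is a description, since libraries of a population share their cell type and some share an ID number. Slc18a2 and Pdzk1ip1 were among the 5 genes most like each other, with r = 0.960, and r = 0.938 over the 9 mutant libraries alone. Grb10, an adaptor that binds the insulin receptor, was most like Slc18a2 (r = 0.977), with means of 150 CPM in control HSC, 134 CPM in control MPP1 and 8.45 CPM in control MPP4. Scarf1, a scavenger receptor gene, was on both lists (r = 0.959 with Slc18a2 and 0.964 with Pdzk1ip1). Bgn, which encodes the matrix proteoglycan biglycan (0.959), and Tmem246 (0.956) completed the list for Slc18a2. For Pdzk1ip1 the list held Tal1 (0.957), the endothelial and stem cell adhesion gene Esam (0.953) and the scaffold gene Shank3 (0.949). Atp1b2 was less like the other 2 genes, with r = 0.415 to Slc18a2 and 0.456 to Pdzk1ip1.

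The genes most like Atp1b2 included Car1, the carbonic anhydrase of red cells (r = 0.934), and Klf1, the erythroid transcription factor (r = 0.887). The others were Sphk1, a sphingosine kinase gene (0.932), the metallothionein gene Mt2 (0.904) and the pseudokinase gene Trib2 (0.883). HSC mutant 1, the library with 184 CPM of Atp1b2, had 1555 CPM of Car1 and 228 CPM of Klf1. In the other 5 HSC libraries Car1 lay between 46.0 and 177 CPM and Klf1 between 9.98 and 40.97 CPM. Car1 was at most 7.36 CPM in MPP1, where Atp1b2 was at 0. Car1 and Klf1 both fell from mutant HSC to mutant MPP4, with log2 differences of -8.62 and -6.42 (adjusted p = 0.000174 and 2.37e-09 by edgeR's quasi-likelihood test with Benjamini-Hochberg adjustment). Both genes were picked for their likeness to Atp1b2 over libraries that include these. A fall was thus favoured by the choice and is no independent support.

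All 12 erythroid markers were in the tables. Their summed level ran from 765 to 1075 CPM in control HSC, 919 to 14863 in mutant HSC, 828 to 31959 in control MPP1, 773 to 887 in mutant MPP1, 316 to 44894 in control MPP4 and 410 to 235411 in mutant MPP4. HSC mutant 1 is the library with 14863 CPM, of which the 4 globin genes gave 11369 CPM. MPP1 control 2 and MPP4 control 4 had 31042 and 43909 CPM of globins and no Atp1b2 count, and MPP4 mutant 2 had 231073 CPM with 2 Atp1b2 counts. That sum is a lower limit, because Hba-a1 is at the ceiling of 36909 counts in MPP4 mutant 2. In the MPP1 mutants Ermap and Alas2 were among the markers at 0. The part of erythroid transcripts in the Atp1b2 levels was not tested beyond leaving out HSC mutant 1, as given above.

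**Figure D3:**
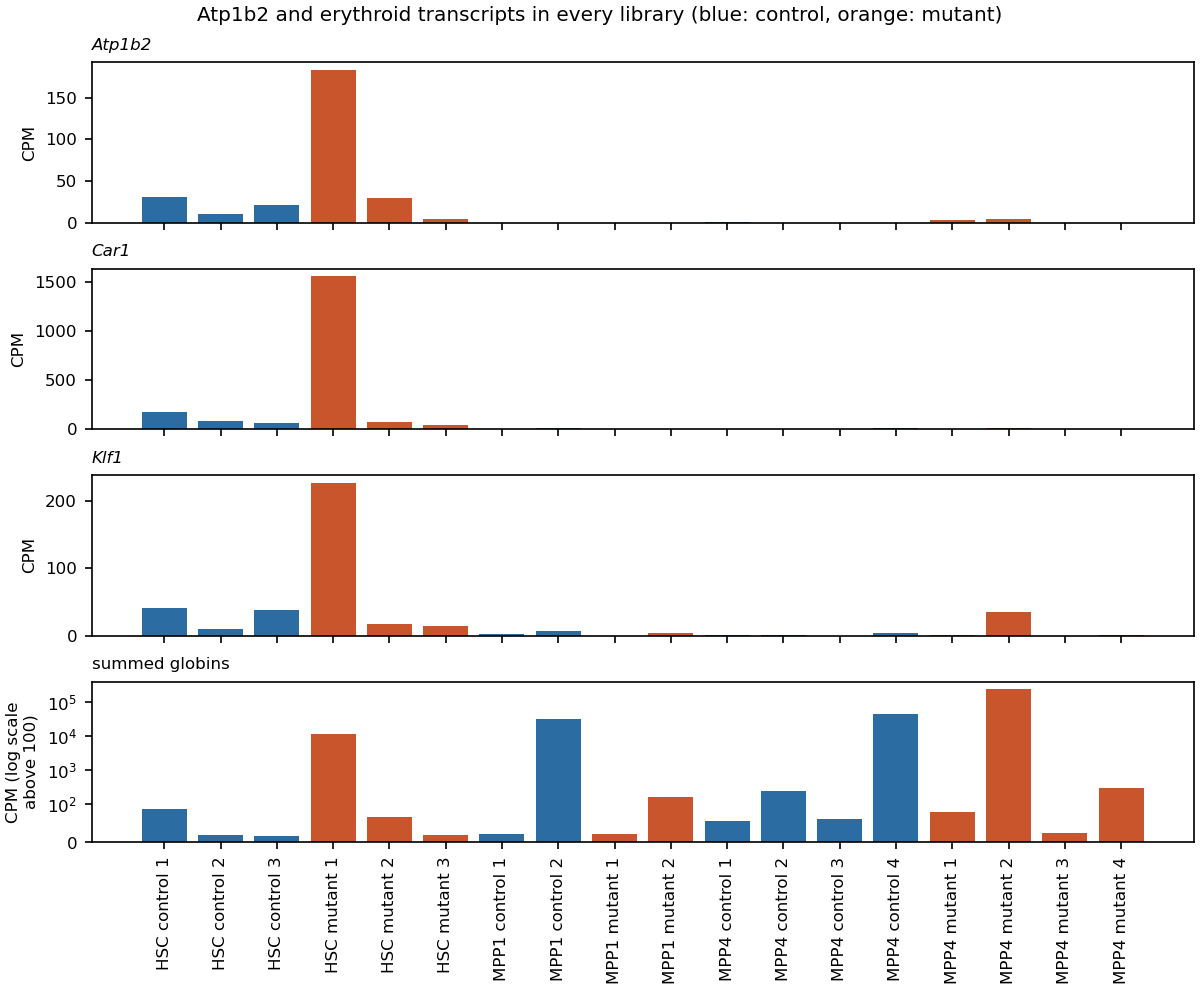
Atp1b2, Car1, Klf1 and the summed globin genes in CPM, with 1 bar for each of the 18 libraries (blue control, orange mutant), on linear axes except for the globins, whose axis is logarithmic above 100 CPM. HSC mutant 1 is highest for Atp1b2, Car1 and Klf1, and the libraries with the most globin transcripts (31042 to 231073 CPM) have 0 to 2 Atp1b2 counts.

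Among genes that handle monoamines, Slc18a2 was the 1 that passed between mutant MPP4 and mutant HSC. It met the filter on low counts only through HSC and MPP1 libraries, so its fall was favoured by the filter. Of 28 genes on this list 25 were in the tables, 22 had a count and 8 were tested. That is 1 of the 8 tested, where 12.7% of all genes passed. The median difference of those 8 was -0.91, against -0.05 over all genes. Slc22a3, a cation transporter that takes up monoamines, had 51.2 CPM in control HSC, 83.3 in control MPP1 and 61.8 in control MPP4, and its mutant difference was -0.26 (adjusted p = 0.672). Maoa, a monoamine oxidase gene, differed by -1.14 (adjusted p = 0.226). Hdc, which makes histamine, differed by -1.06 (adjusted p = 0.554), all by the same edgeR test. Unlike that fitted difference, the mean level of Hdc was higher in mutant MPP4, at 51.8 CPM, than in mutant HSC, at 6.74 CPM. The highest mutant MPP4 library had 196 CPM of Hdc, and the fit compares libraries within ID numbers. Other tested genes were Hnmt at -0.77, Gch1 at 0.80 and Slc18b1 at -2.27 (adjusted p = 0.434, 0.376 and 0.173). Genes for making and taking up serotonin were hardly seen: Tph1 had 2 counts over all libraries, both in control MPP4, Slc6a4 never exceeded 2.67 CPM, and the dopamine enzyme Th was at 0 in every library.

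Mature cells that carry Slc18a2 were looked for in the same libraries. The 10 mast cell and basophil markers in the tables summed to 1.81 to 9.83 CPM in control HSC and 2.57 to 26.9 CPM in mutant HSC, with Cma1, Mcpt4, Tpsb2, Gzmb and Fcer1a at 0 in both groups. They summed to 13.4 to 16.7 CPM over MPP1 libraries and to 2.45 to 207 CPM over MPP4 libraries. The 12 megakaryocyte and platelet markers, of which Tubb1 was at 0 in every group, summed to 231 to 910 CPM in HSC, 269 to 493 CPM in MPP1 and 34.3 to 123 CPM in MPP4. All 7 tested markers of that list were lower in mutant MPP4 than in mutant HSC, with a median of -4.56, where 5.75% of all genes were lower and the median over all genes was -0.05. The part of either list in the Slc18a2 and Pdzk1ip1 levels was not tested.

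Among the tested genes of the sodium pump family, Atp1b2 was the only 1 called lower in mutant MPP4 than in mutant HSC. It met the filter on low counts only through HSC libraries, so a fall was favoured by the filter. Its contrast with the other genes of the family is a description. The list held 22 genes, of which 21 were in the tables, 20 had a count and 7 were tested. Between mutant MPP4 and mutant HSC 4 rose and 1 fell, where 12.7% of all genes passed and 5.75% were lower. The median of the 7 was 0.55, against -0.05 over all genes. Atp1b1, the beta1 subunit, rose by 2.31 (SE 0.55, adjusted p = 0.003) from 3.98 ± 2.60 CPM (SD, n = 3) to 19.2 ± 3.73 CPM (SD, n = 4). Because Atp1b1 has its highest means in MPP4, the filter may have favoured this rise. Atp1b3, the beta3 subunit, rose by 0.55 (SE 0.19, adjusted p = 0.0478) from 136 ± 11.7 to 193 ± 32.8 CPM (SD). The regulator Fxyd5 rose by 0.68 (adjusted p = 0.014). Fxyd1 differed by 0.12 (adjusted p = 0.916), all by edgeR's quasi-likelihood test with Benjamini-Hochberg adjustment. Between mutant MPP1 and mutant HSC the median of the 7 was -0.10, against -0.02 over all genes. Atp1b1 was also higher in mutant MPP4 than in mutant MPP1 (4.18, adjusted p = 0.00891, same test), where mutant MPP1 had 1 count.

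**Figure D4:**
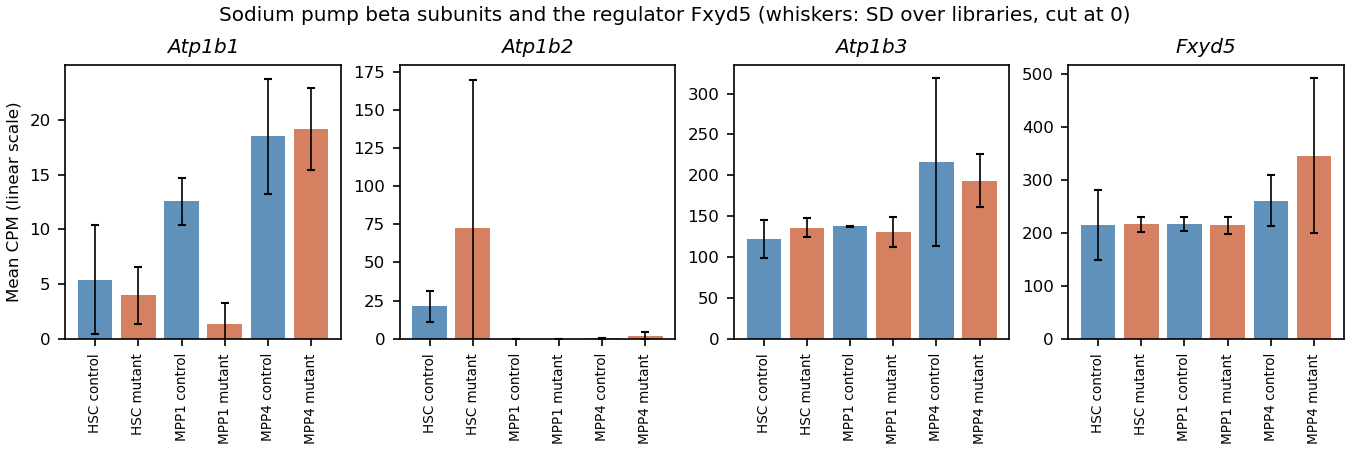
Mean level in CPM (bars) with SD whiskers cut at 0 of the sodium pump genes Atp1b1, Atp1b2 and Atp1b3 and the regulator Fxyd5, by population and genotype (blue control, orange mutant), each panel on its own linear axis. Atp1b2 has means of 21.2 and 72.9 CPM in HSC and at most 2.01 CPM elsewhere, Atp1b3 has means of 122 to 216 CPM, and Atp1b1 has its highest means in MPP4 at 18.5 and 19.2 CPM.

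Among partners of Pdzk1ip1 known from kidney, of 10 listed genes 2 were tested, Pdzk1ip1 and the scaffold gene Slc9a3r1, which had group means of 31.5 to 52.2 CPM and differed by 0.52 between mutant MPP4 and mutant HSC (adjusted p = 0.286 by edgeR's quasi-likelihood test with Benjamini-Hochberg adjustment). Pdzk1 had at most 2.15 CPM in any library. Slc5a2, which encodes SGLT2, had at most 4.48 CPM.

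The neighbours of each gene on its chromosome were read in the same way. Tal1, beside Pdzk1ip1, had means of 269, 234 and 89.2 CPM in control HSC, MPP1 and MPP4 and of 241, 209 and 60.0 CPM in the mutants. Tal1 fell by 2.42 from mutant HSC to mutant MPP4 (SE 0.21, adjusted p = 1.94e-10 by edgeR's quasi-likelihood test with Benjamini-Hochberg adjustment) and differed by -2.0 between mutant MPP4 and MPP1 (adjusted p = 1.21e-06, same test), and it differed by -0.42 between mutant MPP1 and HSC (adjusted p = 0.711, same test). Stil, on the other side of Tal1, rose by 1.37 in mutant MPP4 against HSC (adjusted p = 0.000331, same test), and Cmpk1 differed by -0.10 (adjusted p = 0.864). Of the 6 genes listed at this locus 4 were tested, 2 fell, Pdzk1ip1 and Tal1, and 1 rose. Beside Slc18a2, Pdzd8 lies 1166 bases to the right and differed by 0.18 (adjusted p = 0.727, same test), while Kcnk18 had 1 count in all. Around Atp1b2, Trp53 differed by 0.09 (adjusted p = 0.855), Wrap53 by -0.48 (adjusted p = 0.539) and Fxr2 by 0.08 (adjusted p = 0.893), and Shbg was at 0 in every library. Of the neighbours that were tested, Tal1 was thus the only one that fell with the member beside it.

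**Figure D5:**
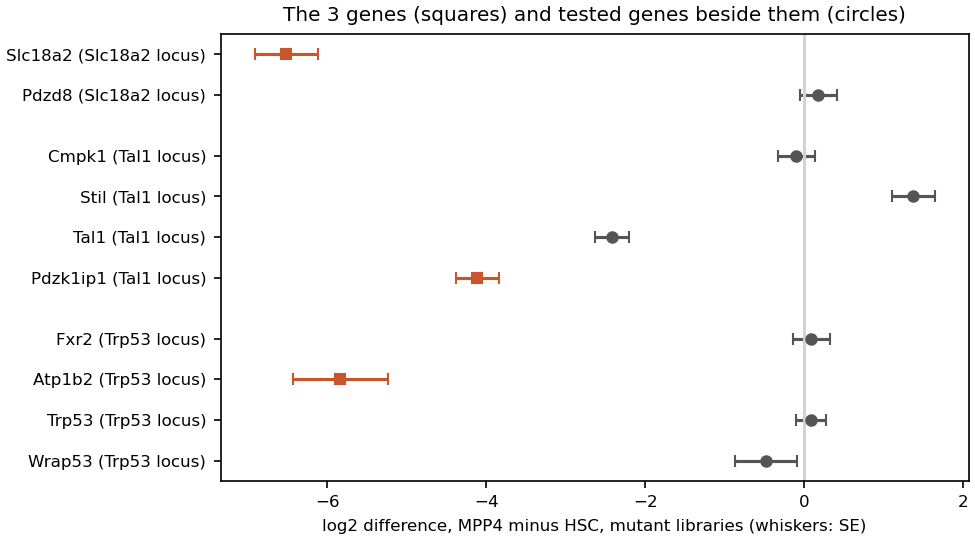
Mutant MPP4 to HSC difference on the log2 scale, with SE whiskers, of each of the 3 genes (squares) and of the tested genes beside it on the chromosome (circles). Pdzk1ip1 (-4.12) and its neighbour Tal1 (-2.42) are both below 0, while Pdzd8 beside Slc18a2 (0.18) and Trp53 beside Atp1b2 (0.09) are close to 0.

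The 24 stem cell markers gave a scale for the 3 genes. Between mutant MPP4 and mutant HSC 17 of the 24 fell and 1 rose, where 12.7% of all genes passed and 5.75% were lower. The median of the 24 was -2.16, against -0.05 over all genes, and the differences of Slc18a2, Pdzk1ip1 and Atp1b2 were larger in size than that median. These 3 genes were chosen for large falls in control libraries, so falls beyond that median were favoured by the choice and are a description. From mutant MPP1 to mutant MPP4 14 of the 24 fell (median -1.97), by the same edgeR test, where 3.16% of all genes were lower. Between mutant MPP1 and mutant HSC the median of the 24 was -0.10. The list was drawn up with earlier results of these data known.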

How the data were processed

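RNA was measured by CEL-Seq2 in 18 libraries. Per the submitters' processing notes, the authors used genome build mm10, R 3.4.0 and DESeq2. No source used here names the aligner, the counting program or the annotation. The deposited tables hold whole-number values that are estimated counts, since 100% of 1557 values from 1000 up to the ceiling of 36909 lay on the grid of a correction for collisions among 4096 molecular tags. Per the file headers, the authors' result tables hold DESeq2's mean signal, log2 fold change with standard error, test score, and p-value. Groups came from the sample labels.

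Deposited counts were tested with edgeR 4.0.16 (R 4.3.3): TMM scaling, a filter with a minimum count of 10, robust quasi-likelihood F tests, and Benjamini-Hochberg adjustment over all genes tested, at a threshold of 0.05. Populations were compared in mutant libraries in 1 fit over all groups, blocked by ID number, and genotypes within each population with sequencing batch as a covariate. Log2 likeness used a prior count of 2. Intervals on pooled ratios are exact and cover counting error at the 95% level. Each SE beside an edgeR difference is approximate. It is the size of the log2 difference divided by the square root of the F value of its test. The fits were tested on simulated data. Alternatives were DESeq2 1.42.0, other scaling, filters of 30 or none, no block or a replicate block, mutant libraries alone, batch C alone and leaving out each library; leaving out both libraries of the ID number of HSC mutant 1 was chosen after seeing the data. Named genes are the 3 members, the 5 genes most like each, and the tested genes of listed families, partners and loci. The members and lists were chosen with earlier results of these data known. Promoter sequences are from RefSeq, and gene positions from GENCODE. Some genes of the lists are not reported here by name.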

Additional observations from a re-analysis of the deposited data

Results flagged for a closer look

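A gap between the highest or lowest library and its neighbour, measured against the range of its group, was looked for in 6 groups of 4 MPP4 libraries, a rule that chance alone also meets at times. Slc18a2 in control MPP4 stood out because replicate 4 had 16.1 CPM while the others had 4.88 to 5.50 CPM. That library has 373963 counts in all, its value rests on 4 Slc18a2 counts, and it also holds 44894 CPM of erythroid markers, whose part in the value was not tested. Atp1b2 in control MPP4 stood out because replicate 1 had 0.61 CPM, which is 1 count, while the others had 0.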

How the results depend on the processing

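Calls for Slc18a2 and Pdzk1ip1 between mutant MPP4 and mutant HSC, and between mutant MPP4 and mutant MPP1, were made under all 17 alternatives of each comparison. Of the 3 genes, 2 to 3 passed between mutant MPP4 and HSC and 2 passed between mutant MPP4 and MPP1 in each. Between mutant MPP1 and HSC the count of members passing went from 0 to 1 (Atp1b2) with no filter on low counts, and was 0 to 1 when single libraries were left out. Between mutant and control HSC it went from 0 to 1 (Atp1b2) with no filter, and was 0 to 1 when single libraries were left out. Without the replicate block by ID number, the control MPP4 to HSC difference moved to -3.51 for Pdzk1ip1 and -6.97 for Atp1b2; without single libraries they ran from -3.34 to -3.17 and from -6.54 to -5.49. Signs turned for differences that did not pass. Atp1b2 between mutant MPP4 and MPP1 was -0.63 with DESeq2, -0.32 within batch C and -0.32 without the ID number of HSC mutant 1, and ran from -0.62 to 1.91 without single libraries. Genotype differences without single libraries ran from -0.67 to 0.0028 for Pdzk1ip1 in HSC, from -0.11 to 0.22 for Slc18a2 in MPP1 (-0.0072 with no filter) and from -0.14 to 0.32 for Pdzk1ip1 in MPP1. The cause was not tested. Atp1b2 was not fitted at a minimum count of 30, where it is under the filter. Counts over all genes moved more than these members: 5 genes passed between mutant MPP1 and HSC (0 to 29 over alternatives), 1352 between MPP4 and HSC (808 to 1363), 654 between MPP4 and MPP1 (206 to 730), and by genotype 22 in HSC (5 without the batch term, 13 to 83 without single libraries, and more than 83 with no filter on low counts), 18 in MPP1 (4 to 75) and 10 in MPP4 (1 to 88). Libraries with the same ID number deviated together with a median correlation of 0.223 over 14 pairs, from 0.067 to 0.42, and those of other ID numbers with -0.081 over 38 pairs; leaving out the block changed no call of a member. Blocking replicate numbers across genotypes likewise changed no member call, with 39 genes passing in HSC, 42 in MPP1 and 11 in MPP4. Depth limits Slc18a2 in MPP4 and Atp1b2 outside HSC, where libraries hold 0 to 16.1 CPM.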
